A study of Homo sapiens with 7 samples.

Results

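GATA6 binding was examined at 10 loci of the BMP pathway in LS174T cells, an established line derived from a human colorectal carcinoma. Each locus was a window of hg19 around a named gene, and its members were the GATA6 ChIP-seq peaks whose summit, the position of greatest coverage, lay inside the window. The 10 windows spanned 2.82 Mb and held 26 of the 7568 peaks in the list. The windows were set by gene and not by any measured value, but with earlier results of these data known. For the ligands, they were chromosome 14 from 54.3 to 54.6 Mb for BMP4, chromosome 20 from 6.6 to 6.9 Mb for BMP2 and chromosome 20 from 55.6 to 55.95 Mb for BMP7. The window of the antagonist GREM1 was chromosome 15 from 32.9 to 33.15 Mb, and that of the receptor BMPR1A was chromosome 10 from 88.4 to 88.8 Mb. For the inhibitory SMADs, they were chromosome 15 from 66.9 to 67.2 Mb for SMAD6 and chromosome 18 from 46.35 to 46.6 Mb for SMAD7. For the ID genes, they were chromosome 20 from 30.1 to 30.3 Mb for ID1, chromosome 2 from 8.7 to 8.95 Mb for ID2 and chromosome 1 from 23.78 to 24.0 Mb for ID3.

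The study precipitated GATA6, a DNA-binding factor with GATA-type zinc fingers that is active in gut, lung and other endoderm derivatives, in 3 libraries of LS174T cells grown in serum and cross-linked with formaldehyde. Its 4 other libraries, 1 each of input DNA, H3K27ac, H3K4me3 and H3K4me1, were not analysed here. All libraries came from this single line, so nothing below speaks of other tumours. For GATA6 there was 1 list of peaks with 1 set of values, and which of the 3 libraries it draws on is not stated. No value therefore has a spread between replicates, the depth per library is unknown, and no test between samples was possible.

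Bone morphogenetic proteins are secreted ligands that bind paired type I and type II receptors. The receptors phosphorylate SMAD1, SMAD5 and SMAD8, which enter the nucleus with SMAD4 and switch on targets such as the ID genes, whose products block basic helix-loop-helix factors. Signalling is held back outside the cell by antagonists such as gremlin 1, and inside it by SMAD6 and SMAD7, which are themselves targets. In the intestine, BMP signalling is strongest in differentiated cells toward the lumen and is kept low around the stem cells at the crypt base, where antagonists from the stroma act. The published work on these libraries asked whether GATA6 acts on BMP genes in colorectal tumour cells.

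Promoter sequences are shown for 3 genes of the pathway that hold letters read by GATA factors or by BMP-activated SMADs. RefSeq promoters of GRCh38.p14, each 250 bases before to 50 bases after a transcript start, were given for 8 of the 10 genes, as 13 promoters, and not for BMP2 and BMP7. The letters GATA, preceded by A or T and followed by A or G, were searched on both strands, and 25% of 35116 RefSeq promoters held at least 1. Among the BMP genes, 2 of the 13 promoters held them. The GGCGCC element, read by BMP-activated SMADs and identical on both strands, was in 19.2% of all promoters. It was found in 2 of the 13, one of GREM1 and one of BMP4. GTCT, the core of the general SMAD element, was in 84% of all promoters and in 12 of the 13, so it does not set these genes apart. The bases before the transcript start are given 5′ to 3′ with the GATA letters in capitals for ID2 (chr2:8681806-8682055, plus strand) and BMPR1A (chr10:86755513-86755762, plus strand), and with the GGCGCC letters in capitals for GREM1 (chr15:32717754-32718003, plus strand).
ID2: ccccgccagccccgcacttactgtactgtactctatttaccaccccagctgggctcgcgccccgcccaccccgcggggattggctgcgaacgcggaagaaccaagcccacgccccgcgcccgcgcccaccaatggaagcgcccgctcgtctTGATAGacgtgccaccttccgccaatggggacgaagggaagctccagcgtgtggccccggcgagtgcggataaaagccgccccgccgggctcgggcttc
BMPR1A: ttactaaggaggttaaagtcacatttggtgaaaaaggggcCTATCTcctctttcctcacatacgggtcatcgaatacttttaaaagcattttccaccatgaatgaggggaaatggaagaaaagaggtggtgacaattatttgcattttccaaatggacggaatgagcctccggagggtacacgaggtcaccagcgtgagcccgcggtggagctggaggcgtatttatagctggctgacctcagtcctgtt
GREM1: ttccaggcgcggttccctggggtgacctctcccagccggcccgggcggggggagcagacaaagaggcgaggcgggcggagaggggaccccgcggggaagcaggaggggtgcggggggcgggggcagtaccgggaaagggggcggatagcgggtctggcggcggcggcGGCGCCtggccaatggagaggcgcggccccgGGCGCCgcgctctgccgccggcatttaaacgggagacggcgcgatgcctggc
In ID2 the match began 99 bases before the start, and its last letters overlapped a GTCT on the other strand. BMPR1A had a further GATA match at base 17, counting the start as 1, in the part not shown. A match describes letters only. The peaks are given on hg19 and the promoters on GRCh38.p14, so whether a peak covered any of these promoters was not analysed here, and neither was the sequence under the peaks or their place in exons, introns or UTRs.

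GATA6 peaks were present in 9 of the 10 windows. The exception was BMPR1A. For a background, windows of each size were laid end to end over chromosomes 1 to 22 and X, from the first summit of each chromosome to its last. These windows did not leave out the 10 loci. A peak was found in 30.1% of such windows at 200 kb, 32.4% at 220 kb, 35.1% at 250 kb, 39.9% at 300 kb, 43.9% at 350 kb and 47.2% at 400 kb. Over the sizes of the 10 loci these shares add up to 3.79 windows. The loci held 9.22 peaks per Mb, against 2.60 per Mb over the rest of the chromosome spans, a ratio of 3.54. BMP4 contributed 8 of the 26 peaks, and without it the density was 7.14 per Mb. The laid windows include gene-poor and unsequenced stretches, whereas the 10 loci were placed on genes. The part of that difference in the ratio was not tested.

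**Figure D1:**
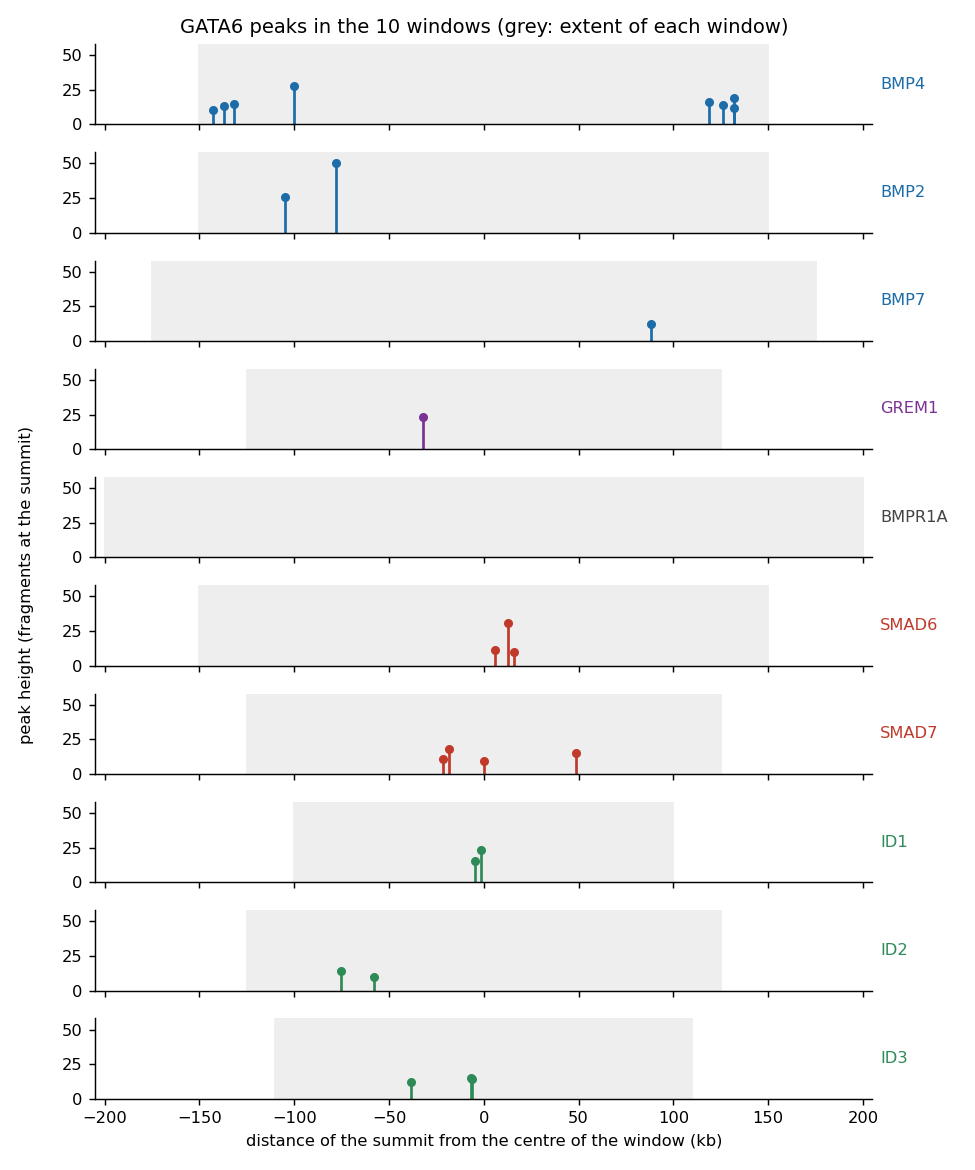
Position and height of each GATA6 peak in the 10 windows. The x axis gives the distance of the summit from the centre of the window in kb, the y axis the height in fragments, and grey marks the extent of the window; all 8 BMP4 peaks lie toward the window's ends, the SMAD6, SMAD7 and ID1 peaks lie nearer the centre, and BMPR1A has none.

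The BMP4 window held the most peaks. BMP4 encodes a secreted ligand of the pathway. Its 8 peaks stand beside a mean of 0.78 over 9651 windows of 300 kb, of which 40 (0.414%) held at least 8. On chromosome 14, 1 of 287 windows (0.348%) did. Since the laid windows did not leave out this locus, that window may hold the same peaks, which was not checked. The peaks formed a group of 4 at the low end of the window, with summits from 54307324 to 54349717, and a group of 4 at the high end, with summits from 54569015 to 54582362. The 219 kb between the groups held no peak. Distances at least as long separated 39.4% of neighbouring summits in the list, so such a gap was common. All 8 lay within 50 kb of an end of the window, and a window narrowed by 50 kb on either side held 0.

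The highest BMP4 peak, chr14:54349543-54349853, was 28 fragments high (95% Poisson interval 18.6 to 40.5), a fold of 17.82 over its local background. It closed the low group and stood 32.2 kb from the summit before it. The peak chr14:54581636-54581915 was 19 fragments high (11.4 to 29.7) at a fold of 12.09, and chr14:54317417-54317666 was 15 fragments high (8.40 to 24.7) at a fold of 15.04. These were the 3 with the largest −log10 p. Heights of the remaining 5 ran from 10 to 16 and their folds from 6.01 to 13.37, so the intervals of all 8 heights except that of the highest held 16 fragments, the median height of the peaks outside the loci. Of the 8 peaks, 7 had another summit within 10 kb, against 27.1% of the peaks outside the loci. In the high group, 2 were only 619 bp apart. The protein-coding genes next to BMP4 in RefSeq are DDHD1 and CDKN3. Peaks were not assigned to any of these genes.

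BMP2, a close relative of BMP4, had the highest single peak of the loci. Of 300 kb windows, 18.9% held at least 2 peaks, as its window did. The peak chr20:6671551-6671910 reached 50 fragments (37.1 to 65.9), above 97.5% of the list, with a fold of 16.71 and a −log10 p of 43.18. Its local background, 2.99 fragments, was also above that of 93.2% of peaks. The peak chr20:6644403-6644788 was lower, at 26 fragments (17.0 to 38.1), but stood on a background of 0.786 and so had the largest fold of the loci, 33.09. The intervals of these heights overlapped narrowly. Ranked by −log10 p among all 7568 peaks, they were 424 and 903, and the summits were 27.2 kb apart. The coding genes next to BMP2 are FERMT1 and HAO1.

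BMP7, a ligand of the same superfamily, had a single peak at chr20:55863317-55863540. Its height was 12 fragments (6.20 to 21.0) and its fold 17.18, over a background of 0.698. The nearest summit was 244 kb away, and 16.6% of peaks in the list were at least as isolated. A window of 350 kb with 1 peak is common, as the share of 43.9% shows, so the BMP7 window did not stand apart in number.

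GREM1 encodes gremlin 1, a secreted antagonist that binds BMP2 and BMP4. Its window held 1 peak, chr15:32992639-32993233, which was 23 fragments high (14.6 to 34.5) at a fold of 16.47. That count did not stand apart either, at 35.1% of 250 kb windows with a peak. The peak was broad, at 595 bp wider than 98.6% of the list. It was also solitary: the nearest summit was 591 kb away, and 4.97% of peaks were at least that far from any other. Its neighbours in RefSeq are SCG5 and FMN1.

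No peak was listed for BMPR1A, the type I receptor. The nearest summits on either side were at 88295123 and 89260635 on chromosome 10. The peak-free interval between them was 966 kb, and 10.7% of intervals in the list were at least as long. Since 47.2% of windows of 400 kb held a peak, most windows of that size were empty too. The list gives only regions that passed the authors' threshold, so weaker binding in the window would not be seen. As shown above, its promoter carried GATA letters, as did 25% of all RefSeq promoters, and no peak was placed on any promoter.

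**Figure D2:**
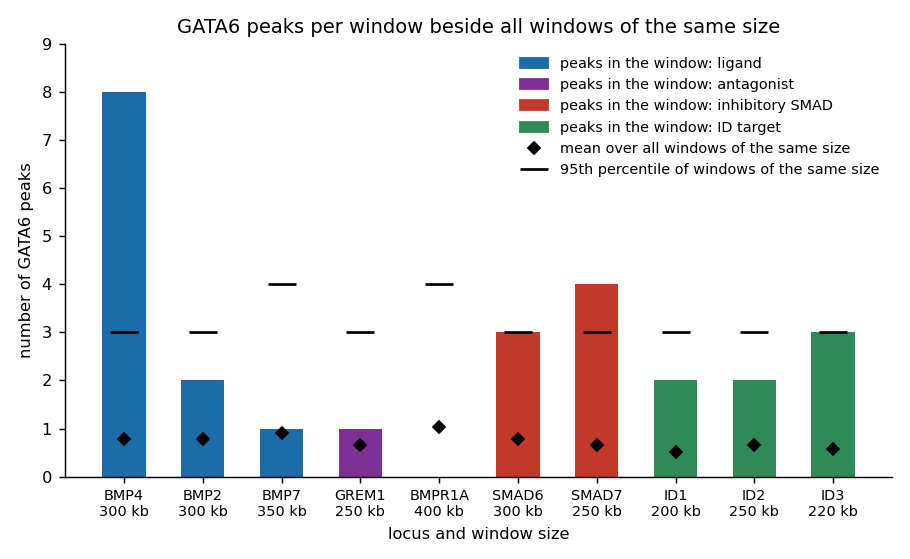
Number of GATA6 peaks per locus. Bars give the count in each window, coloured by role, diamonds the mean and dashes the 95th percentile over all windows of the same size; BMP4 with 8 peaks and SMAD7 with 4 lie above the 95th percentile of 3, SMAD6 and ID3 are on it, and the other 6 lie below theirs.

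Both inhibitory SMAD windows held several peaks near their centre, but the peaks differed in fold. SMAD7, which blocks receptors of both the BMP and TGF-beta branches, had 4 peaks, and 3.55% of 250 kb windows held at least 4. On chromosome 18, 8 of 298 windows (2.68%) reached that number. The peak chr18:46456535-46456895 was 18 fragments high (10.7 to 28.4), with a fold of 23.43. At chr18:46453209-46453389, 3.45 kb from it, the height was 11 (5.49 to 19.7) and the fold 14.32. The peak chr18:46474857-46475069 was 9 fragments high (4.12 to 17.1), the lowest of the loci, with a fold of 15.62. The remaining peak, chr18:46523491-46523691, was 15 fragments high (8.40 to 24.7) at a fold of 14.32. All 4 folds were above 14.03, the median of the peaks outside the loci, while only the first height was above 16. Local backgrounds ran from 0.576 to 1.05 fragments, against a median of 1.05 in the list. CTIF and DYM are the neighbouring coding genes.

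SMAD6, which acts mainly against the BMP branch, had 3 peaks within 9.88 kb, and 9.24% of 300 kb windows held at least 3. On chromosome 15, 29 of 272 windows (10.7%) did. The 3 peaks of SMAD6 included the smallest fold of the loci. The peak chr15:67062957-67063168 was 31 fragments high (21.1 to 44.0), above 87.8% of the list, but its fold was 3.45, and 3 peaks of the list had a smaller one. Its local background of 8.99 fragments was the highest of all 7562 peaks on chromosomes 1 to 22 and X, where the next highest was 6.99. On either side of it, chr15:67055975-67056183 was 11 fragments high (5.49 to 19.7) at a fold of 5.51, and chr15:67065738-67066029 was 10 fragments high (4.80 to 18.4) at a fold of 8.30. Their backgrounds were 2.00 and 1.20 fragments, against a median of 1.05 in the list and 1.40 over the 247 peaks of chromosome 15. None of the 3 reached a fold of 10 or the median −log10 p of the list, 12.98. Of the peaks outside the loci, 76.6% reached that fold and 50.1% that −log10 p. SMAD6 and SMAD7 therefore had similar counts, but the 3 folds at SMAD6 lay from 3.45 to 8.30 and the 4 at SMAD7 from 14.32 to 23.43. These folds are single values without an interval, although the heights behind them carry counting error. The difference in fold was not tested, and neither was a part of the local background in it.

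**Figure D3:**
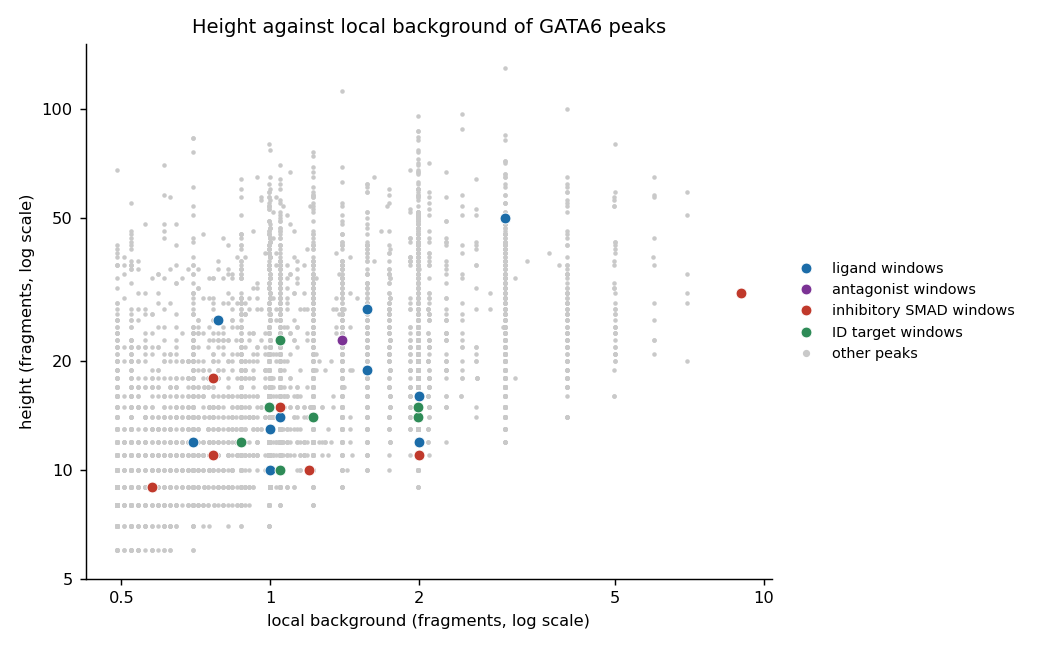
Height against local background of each GATA6 peak, both in fragments on log axes. Coloured points are the 26 peaks of the loci by role and grey points the other 7536 peaks; the SMAD6 peak of height 31 lies at the far right, at a background of 8.99, and the BMP2 peak of height 50 is the highest coloured point.

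The 3 ID genes encode inhibitors of basic helix-loop-helix factors and are immediate targets of BMP signalling. All 3 windows held peaks, 7 in all. ID1 had 2 peaks 3.42 kb apart, −4.76 and −1.34 kb from the centre of the window, where the minus sign means toward lower coordinates. Of 200 kb windows, 12.1% held at least 2. The peak chr20:30198515-30198769 was 23 fragments high (14.6 to 34.5) at a fold of 21.96, and chr20:30195122-30195388 was 15 fragments high (8.40 to 24.7) at a fold of 15.04. Both were at or above the median −log10 p of the list, which no peak at ID2 or ID3 was. No other summit lay within 617 kb of the pair. HM13 and COX4I2 are the coding genes next to ID1.

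ID3 had 3 peaks, and 5.92% of 220 kb windows held at least 3. On chromosome 1, 88 of 1119 windows (7.86%) did. With summits within 1 kb joined ID3 had 2, and 12.9% of windows held at least as many. Of peaks at or above the median −log10 p of the list it had 0, while 20.2% of windows held at least 1. A pair of them was unusual in shape. The peaks chr1:23883020-23883536 and chr1:23883599-23884214 were 62 bp apart and together spanned 1195 bp. They were 517 and 616 bp wide, wider than 97.1% and 99.0% of the list, yet only 15 (8.40 to 24.7) and 14 fragments (7.65 to 23.5) high. Peaks at least as wide as the second numbered 79 in the list, with a median height of 35, and 3 of these, itself included, were no higher than 14. Folds were 7.52 and 11.46. The remaining peak, chr1:23851327-23851518, was narrow, at 192 bp, 12 fragments high (6.20 to 21.0) and at a fold of 13.75. E2F2 and RPL11 flank ID3 in RefSeq.

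ID2 had 2 peaks 17.5 kb apart, and 15.6% of 250 kb windows held at least 2. The peak chr2:8749684-8749858 was 14 fragments high (7.65 to 23.5) at a fold of 7.02. Its width, 175 bp, was the smallest of the list and was shared by many other peaks. At chr2:8767201-8767458, the height was 10 (4.80 to 18.4) and the fold 9.55. Neither reached a fold of 10, whereas both ID1 peaks exceeded it, as did or equalled 76.6% of the peaks outside the loci. The intervals of the 4 heights of ID1 and ID2 overlapped. RNF144A and KIDINS220 are next to ID2.

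**Figure D4:**
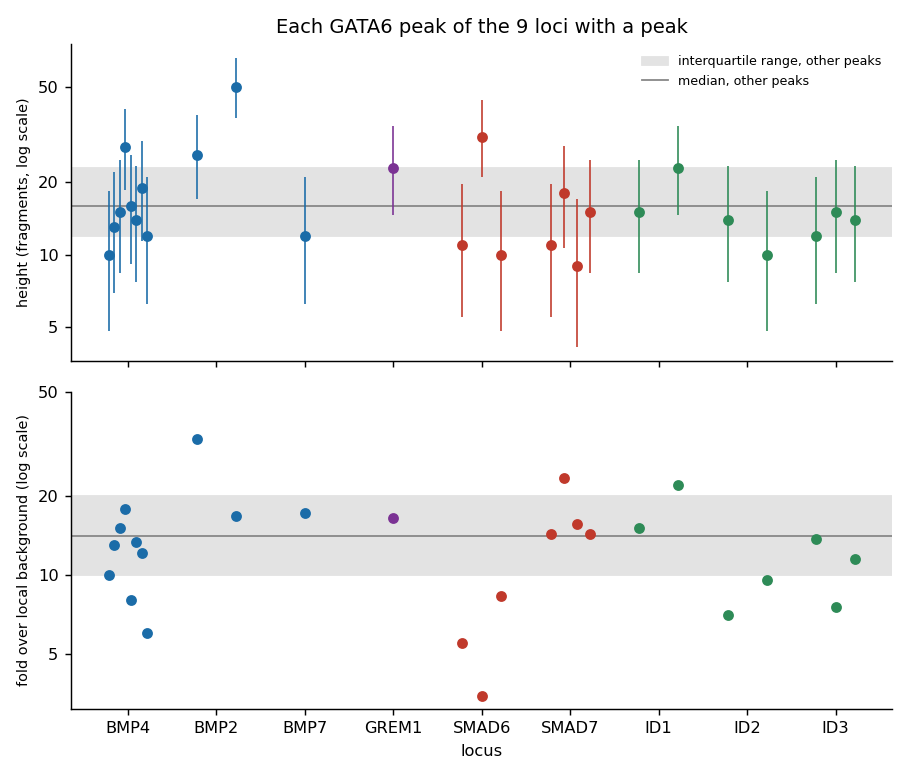
Height (upper panel, fragments) and fold over local background (lower panel) of each peak, by locus, on log axes. Lines on the heights are 95% Poisson intervals, and the grey band and line are the interquartile range and median of the other 7536 peaks; BMP2 holds the highest peak and the largest fold, and all 3 SMAD6 folds lie under the band.

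Single peaks of the BMP loci had a median height and fold slightly below those of the rest of the list. Their median height was 14.5 fragments (interquartile range 12 to 18.8, n = 26), against 16 (12 to 23) for the 7536 other peaks. The median fold was 13.56 (8.61 to 16.3), against 14.03 (10.0 to 20.1), and the median −log10 p was 11.3, against 13. The median widths were 256 and 251 bp, and the median local background was 1.05 fragments in both. A fold of at least 10 was reached by 18 of 26 peaks (69.2%), against 76.6% of the others. At or above the median −log10 p of the list were 10 of 26 (38.5%), against 50.1%, and in the upper 10% of the list was 1 of 26, the higher BMP2 peak, against 10% of the others. A local background above the list's median was found at 14 of 26 (53.8%), against 49.8%. At the floor of the background, 0.489 fragments, were 0 of 26, against 6.22%. The shares for fold and −log10 p were lower at the loci than among the other peaks. They rest on 26 peaks, and none was tested, since peaks of one list are not replicates.

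In spacing, the values of the loci and of the other peaks were further apart. Another summit lay within 10 kb for 16 of 26 peaks (61.5%), against 27.1% of the others. These 16 were 7 at BMP4, 3 at SMAD6 and 2 each at SMAD7, ID1 and ID3. Without BMP4 the number was 9 of 18. None of the peaks at BMP2, BMP7, GREM1 and ID2 had so close a neighbour. This difference was not tested either, and a window that holds more peaks also places them closer together. Joining summits within 1 kb left 24 peaks, with 7 at BMP4 and 2 at ID3.

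By role, the 3 ligand windows held 11 peaks at 11.6 per Mb, the 2 inhibitory SMAD windows 7 at 12.7 per Mb, and the 3 ID windows 7 at 10.4 per Mb. GREM1 had 1 peak in 0.25 Mb and BMPR1A none. Within the ligands BMP4 alone gave 26.7 per Mb, and BMP7 gave 2.86. The windows' ends decide some members. Within 50 kb outside an end lay 4 further peaks. The one nearest an end, chr1:23778605-23778822, was 1.29 kb outside the ID3 window and, at 22 fragments and a fold of 11.03, higher than the 3 inside. Another, chr18:46328277-46328524, was 21.6 kb outside the SMAD7 window, at 22 fragments and a fold of 25.2. Beside BMP4, chr14:54644691-54644891 had a height of 15 and lay 44.8 kb outside, and beside BMP2, chr20:6940592-6941019 had a height of 13 and lay 40.9 kb outside. The closest to an end from the inside was the BMP4 peak chr14:54307241-54307464, 7.32 kb in, with a height of 10.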

How the data were processed

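ChIP-seq libraries of LS174T cells were sequenced by the study, and the GATA6 peak list was used. Per the submitters' processing notes, reads were handled with CASAVA 1.8 and BWA 0.5.9-r16 on hg19. No source used here names the peak caller or its control, or says whether the 3 libraries were pooled. Per the file headers, each peak has a pileup, the coverage signal deposited by the authors and called height here. It also has a fold enrichment, and p-values and q-values deposited as −log10 values. The header does not say what the fold is taken over, and it was read here as a ratio over local background. These scores are the authors' own. Other deposited columns are positions and widths, counted from 1.

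Summits in each window were counted in Python 3.11.15 with pandas 2.3.3, numpy 2.4.6 and scipy 1.17.1, after the counting was tested on simulated data. Local background is height divided by fold. Intervals of heights are exact Poisson intervals at 95% and reflect only counting error, as PCR copies cannot be told from separate molecules. Peaks outside chromosomes 1 to 22 and X were left out. The rule for named items took, per locus, all peaks up to 5, or otherwise the 3 with the largest −log10 p. Members and lists were chosen with earlier results of these data known. Further pathway genes were planned but not counted, since no hg19 annotation was used here.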

Additional observations from a re-analysis of the deposited data

How the results depend on the processing

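The 26 peaks became 10 when the list was restricted to peaks at or above its median −log10 p, and 16 when each window was narrowed by 50 kb on either side, where BMP4 lost all 8. The 9 windows with a peak became 5 at the median −log10 p, leaving BMP4, BMP2, SMAD7, ID1 and GREM1. That cut kept 50.1% of the peaks outside the loci. It also lowered the share of all same-size windows with a peak. The share went from 35.1% to 22.3% at 250 kb, from 39.9% to 25.8% at 300 kb and from 47.2% to 31.8% at 400 kb. With a fold of at least 10, 18 peaks were left in 7 windows, without SMAD6 and ID2. Of the peaks outside the loci, 76.6% reached that fold. Such a peak was found in 30.6% of all windows of 250 kb, 35.0% of 300 kb and 42.2% of 400 kb. With windows widened by 50 kb there were 30 peaks in 9 windows, and counting any base of a peak changed neither number. The median height stayed between 14.5 and 15, and the median fold between 13.5 and 14.32, under the wider and narrower windows and without BMP4. The share of same-size windows with at least 8 peaks was 0.29% when windows were laid with a shifted start. Among windows with a peak it was 1.04%, and at the median −log10 p, where BMP4 kept 3 peaks, the corresponding share was 2.92%. For SMAD7 these 3 shares were 3.60%, 10.1% and 6.87%. Among windows with a peak, the share was 23.2% for SMAD6 and 18.3% for ID3. The order of the loci changed at the median −log10 p. There BMP2 and ID1 kept 2 peaks each, and their shares went from 18.9% to 8.65% and from 12.1% to 5.22%. SMAD6 and ID3 kept 0, while 25.8% and 20.2% of windows of their sizes held at least 1. For ID3, which had 2 peaks after joining, the share then was 12.9%. Over windows of the same chromosome only, the share was lower at BMP4, BMP2, BMP7, SMAD7 and ID1. It was higher at SMAD6, ID2, ID3, BMPR1A and GREM1. No paired analysis was possible because the list has no value per library, and leaving out each GATA6 library was not run for the same reason. Heights near the median carry a counting error of about the size of the differences between most loci.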
